A study of Homo sapiens with 5 samples.

Results

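The AP-1 transcription factors of the JUN and FOS families were followed in HL60, an established human promyelocytic leukaemia line. The 10 members were JUN, JUNB, JUND, FOS, FOSB, FOSL1, FOSL2, BATF, BATF3 and ATF3. They were found by gene symbol, and all 10 were among the 51055 gene IDs counted. ZIP libraries (n = 2) came from cells given a lentivector whose hairpin transcript is antisense to miR-378a-3p. SCR libraries (n = 2) came from cells given the control lentivector, which the labels call scramble in one place and empty in another. A single untransduced library (n = 1) came from HL60 with neither vector. Both vectors carry green fluorescent protein. Infection was at 20 vector units per cell in 8 µg/mL polybrene, and 2 µg/mL puromycin was present between days 3 and 8. ZIP and SCR cells therefore share transduction and selection, and the effects of these and of the vector cannot be told apart in a comparison with untransduced cells.

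AP-1 is a dimer of basic leucine zipper proteins. JUN proteins pair with one another or with FOS proteins, FOS proteins need a JUN partner, and the dimers bind a short palindromic DNA element, the TRE (TGACTCA). BATF proteins and ATF3 also pair with JUN proteins, ATF3 being an early gene of the stress response. JUN and FOS are immediate early genes, switched on within minutes by growth factors, cytokines and stress through MAP kinases, and myeloid leukaemia lines driven towards monocytes by phorbol ester raise several AP-1 genes.

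The microRNA that the ZIP vector is directed against, hsa-miR-378a-3p, is shown with its seed (bases 2 to 8) in capitals because it defines the ZIP group. RefSeq places it on chromosome 5 from 149732867 to 149732888 of GRCh38.p14, plus strand.
hsa-miR-378a-3p: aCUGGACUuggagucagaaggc
The complement of this seed, AGTCCAG, was found in the longest annotated 3' UTR of 0 of the 10 members (GENCODE release 29, gene strand). Among genes whose 3' UTR length was within 20% of a member's, the share with this run of letters was between 3.53% (lengths near that of BATF3) and 28.4% (lengths near that of FOSL2).

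RefSeq promoter windows, from 250 bases before to 50 bases after the transcript start in GRCh38.p14, were listed for 8 members. The window of JUN and the more upstream window of ATF3 are shown because they share a TRE-like element. Those of FOS and FOSB are shown because their mRNA levels moved in opposite directions between ZIP and SCR. Capitals mark TGACATCA (TRE-like), TGACGT (the core of a cyclic AMP response element) and TATAAA.
JUN, chr1:58783998-58784297, minus strand: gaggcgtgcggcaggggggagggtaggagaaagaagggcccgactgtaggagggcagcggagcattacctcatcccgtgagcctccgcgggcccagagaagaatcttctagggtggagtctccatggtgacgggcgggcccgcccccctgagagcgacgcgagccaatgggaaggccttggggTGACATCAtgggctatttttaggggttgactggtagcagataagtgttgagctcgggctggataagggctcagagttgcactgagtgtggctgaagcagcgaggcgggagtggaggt
ATF3, chr1:212565157-212565456, plus strand: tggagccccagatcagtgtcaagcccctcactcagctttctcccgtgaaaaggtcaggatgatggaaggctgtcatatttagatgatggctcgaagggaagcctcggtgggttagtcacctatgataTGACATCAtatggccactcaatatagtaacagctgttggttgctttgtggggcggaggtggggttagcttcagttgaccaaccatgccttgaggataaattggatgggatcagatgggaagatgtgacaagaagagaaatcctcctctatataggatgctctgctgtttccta
FOS, chr14:75278578-75278877, plus strand: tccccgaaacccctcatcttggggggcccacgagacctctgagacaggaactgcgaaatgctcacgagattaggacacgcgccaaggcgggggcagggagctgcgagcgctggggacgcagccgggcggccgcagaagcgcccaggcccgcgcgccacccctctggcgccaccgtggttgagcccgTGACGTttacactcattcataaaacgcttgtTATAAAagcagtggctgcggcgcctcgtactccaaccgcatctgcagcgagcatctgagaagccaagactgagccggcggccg
FOSB, chr19:45467746-45468045, plus strand: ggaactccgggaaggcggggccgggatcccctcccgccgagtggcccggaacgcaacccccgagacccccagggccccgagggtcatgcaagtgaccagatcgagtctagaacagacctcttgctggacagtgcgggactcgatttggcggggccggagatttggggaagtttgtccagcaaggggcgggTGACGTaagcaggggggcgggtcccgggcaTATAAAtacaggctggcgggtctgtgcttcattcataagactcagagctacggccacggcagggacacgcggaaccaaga
TGACATCA began 67 bases before the start of JUN and 123 bases before the more upstream listed start of ATF3. The window at the more downstream ATF3 start, chr1:212614768-212615067, did not hold it. Which ATF3 start these cells use was not tested. Of all 35116 promoter windows, 2.61% held TGACATCA on either strand. TGACGT began 64 bases before the start of FOS and 60 bases before that of FOSB. It was also in the windows of FOSL2 and JUND, so in 4 of 8 members (9 windows), against 7.98% of all windows. This motif was chosen after the promoter sequences were seen, so setting it beside all windows is no fair comparison. TATAAA was searched on the gene's strand and was in the windows of FOS, FOSB, JUNB and a second window of ATF3, against 7.33% of all. The other motifs were searched on both strands. The TRE itself (TGACTCA) was in the window of FOSL2 and in 4.95% of all windows. The full element TGACGTCA, which contains TGACGT, was in that of JUND and in 1.85% of all. The GC box GGGCGG was in 7 of 8 members' windows and in 45.0% of all. The CArG box and the NF-kB site were in 0 of 8 members' windows, against 1.29% and 7.73% of all. Sites more than 250 bases before the start were not searched, so a member may still hold them there. A match is a run of letters in a window and shows no binding.

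The labels name a small RNA library kit, while the table counts genes of all kinds. The libraries held 30925067 and 24406580 counts in ZIP, 24539092 and 24978022 in SCR, and 25064771 in the untransduced library. Levels are given as CPM, counts divided by a library size that was scaled by the TMM method, and 3 counts equalled 0.0979 to 0.125 CPM per library. The promyelocyte markers MPO, ELANE, PRTN3, AZU1, CTSG, CD33 and MYB were above 1 CPM in every library. All 7 markers of epithelial cells and fibroblasts were under 1 CPM in every library. The labels do not state whether replicates were separate cultures. The spread behind each p-value is that between these libraries and may be technical. Fits with the untransduced group assumed that its single library varied like the others. In bulk RNA, fewer cells of a type and less RNA per cell cannot be told apart.

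In ZIP against SCR, 8 of the 10 members fell and 2 rose. JUN, JUNB, JUND, FOS, FOSL1, FOSL2, BATF3 and ATF3 were lower in ZIP, and FOSB and BATF were higher. Of all 14643 genes tested, 33.2% fell and 32.2% rose (65.4% in either direction, edgeR quasi-likelihood test with Benjamini-Hochberg adjustment at 0.05), so a change as such was common. Changes of at least 2-fold were less frequent: 5 members fell and 1 rose by that much, against 11.0% and 3.13% of all genes. The median log2 fold change was -1.04 over the 10 members and 0.00 over all genes. The members were chosen with earlier results of these data known. Their counts and medians, here and against untransduced cells, are therefore descriptions and no independent support.

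In SCR against untransduced cells 9 of the 10 members rose, and BATF did not pass the threshold. Of 15832 genes tested 32.7% rose and 32.2% fell (64.9% in either direction). At least 2-fold rises were found in 7 members and in 14.5% of all genes, and at least 2-fold falls in 0 members and in 5.86% of all genes. The members' median log2 fold change was 2.68, against 0.02 over all genes. In ZIP against untransduced cells 6 members rose, 2 fell, and BATF and BATF3 did not pass. There 28.5% of all genes rose and 29.7% fell (58.2% in either direction). All 6 rises were at least 2-fold, against 8.70% of all genes, and 0 members fell by 2-fold, against 5.19%. The members' median was 1.44, against 0.00 over all genes. The comparisons share libraries, so each is read by its own values.

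**Figure D1:**
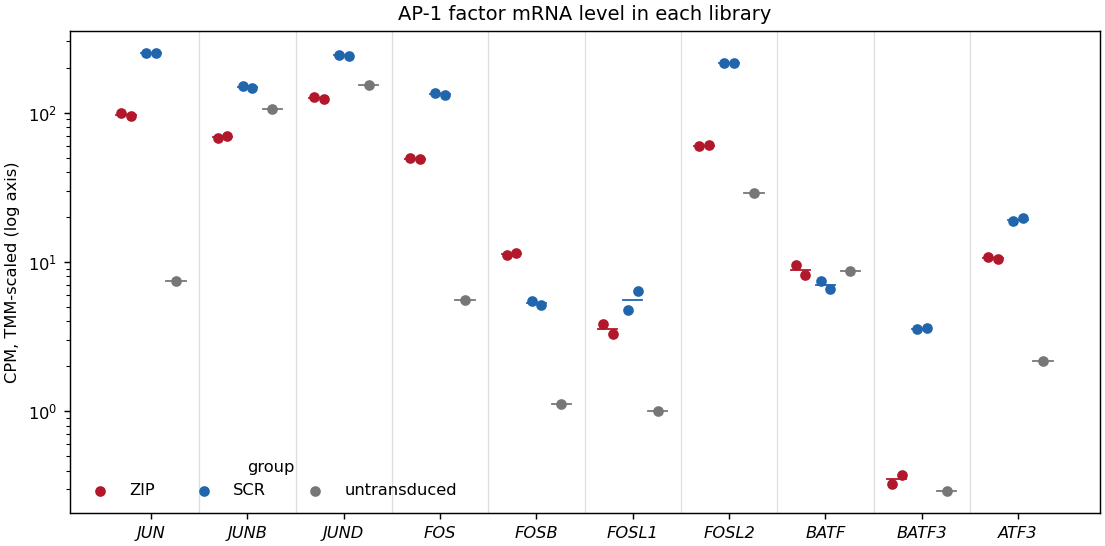
CPM of each AP-1 factor on a log axis, with a point for each library and a bar at the group mean, for ZIP (2 libraries), SCR (2) and untransduced cells (1). JUN and FOS stood highest in SCR and lowest in the untransduced library, FOSB stood highest in ZIP, and JUNB and JUND were lower in ZIP than in the untransduced library.

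The JUN family supplies the obligatory partner of every FOS protein. JUN (ENSG00000177606, chromosome 1, 58780788 to 58784327, GRCh38), the founding member and a strong activator, stood at 99.4 and 94.9 CPM in ZIP, 250.2 and 250.1 CPM in SCR, and 7.47 CPM in the untransduced library. Both ZIP libraries lay between the other groups, with no overlap. The log2 fold change of JUN was -1.36 ± 0.03 (SE) in ZIP against SCR (edgeR, adjusted p = 1.1e-18). It was 5.07 ± 0.06 in SCR against untransduced cells, a 33.5-fold higher level and the largest rise among the members (edgeR, adjusted p = 3.8e-25). ZIP cells stood 13.0-fold above the untransduced library in JUN (log2 3.70 ± 0.07, edgeR, adjusted p = 1.9e-21).

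JUNB (ENSG00000171223, chromosome 19, 12791496 to 12793315), a weaker activator that can restrain JUN, was at 67.7 and 69.4 CPM in ZIP, 151.7 and 147 CPM in SCR, and 106 CPM in the untransduced library. Here the ZIP libraries were the lowest, below the untransduced one. JUNB fell by 1.13 ± 0.03 on the log2 scale in ZIP against SCR (edgeR, adjusted p = 2.9e-17) and by 0.64 ± 0.04 in ZIP against untransduced cells (edgeR, adjusted p = 3.9e-12). It rose by 0.49 ± 0.04 in SCR against untransduced cells (edgeR, adjusted p = 6.2e-11). The exons of JUNB overlap those of HOOK2 on the opposite strand, which had 239 and 212 counts in ZIP, 268 and 312 in SCR, and 201 in the untransduced library. The sources used here do not say whether counting used strand. JUNB had 1680 to 3851 counts per library.

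JUND (ENSG00000130522, chromosome 19, 18279760 to 18281622), the most steadily expressed JUN protein in most tissues, was at 127 and 123 CPM in ZIP, 244 and 241 CPM in SCR, and 153 CPM in the untransduced library. It had the same order of groups as JUNB. JUND fell by 0.96 ± 0.03 on the log2 scale in ZIP against SCR (edgeR, adjusted p = 1.9e-16) and by 0.30 ± 0.04 in ZIP against untransduced cells (edgeR, adjusted p = 4.3e-07), and rose by 0.66 ± 0.04 in SCR against untransduced cells (edgeR, adjusted p = 2.5e-13).

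Among the FOS family, FOS (ENSG00000170345, chromosome 14, 75278774 to 75282230), the classic serum-induced partner of JUN, followed a course close to that of JUN. FOS stood at 49.3 and 48.9 CPM in ZIP, 135 and 131 CPM in SCR, and 5.59 CPM in the untransduced library. The 3 groups did not overlap. Its log2 fold change was -1.44 ± 0.03 in ZIP against SCR (edgeR, adjusted p = 1.7e-18), 4.57 ± 0.07 in SCR against untransduced cells (edgeR, adjusted p = 1.9e-23) and 3.13 ± 0.08 in ZIP against untransduced cells (edgeR, adjusted p = 1.1e-18).

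FOSB (ENSG00000125740, chromosome 19, 45467995 to 45475179), a FOS protein with a long-lived splice form, went the other way in ZIP against SCR. It stood at 11.1 and 11.5 CPM in ZIP, 5.48 and 5.13 CPM in SCR, and 1.13 CPM in the untransduced library, on 339 and 278, 139 and 132, and 27 counts. ZIP was the highest group for this member. FOSB rose by 1.09 ± 0.10 on the log2 scale in ZIP against SCR (edgeR, adjusted p = 1.4e-08), by 2.23 ± 0.23 in SCR against untransduced cells (edgeR, adjusted p = 1e-08) and by 3.32 ± 0.19 in ZIP against untransduced cells (edgeR, adjusted p = 1.3e-12). The counts do not separate splice forms. FOSB lies within the span of ERCC1 on the opposite strand, and the exons of these genes do not overlap.

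FOSL1 (ENSG00000175592, chromosome 11, 65892049 to 65900573), also called FRA1, was the FOS gene with the widest spread between replicates. It stood at 3.82 and 3.31 CPM in ZIP, 4.77 and 6.42 CPM in SCR, and 1.001 CPM in the untransduced library. The untransduced value of FOSL1 rests on 24 counts. FOSL1 fell by 0.64 ± 0.16 on the log2 scale in ZIP against SCR (edgeR, adjusted p = 0.0013). Without SCR 2 the log2 fold change was -0.41 (edgeR, adjusted p = 0.047). It rose by 2.48 ± 0.27 in SCR (edgeR, adjusted p = 2.7e-08) and by 1.84 ± 0.29 in ZIP (edgeR, adjusted p = 1e-05), each against untransduced cells.

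FOSL2 (ENSG00000075426, chromosome 2, 28392448 to 28417312), also called FRA2 and, like FOSL1, without the strong activation domain of FOS, had the largest fall of the FOS genes. It stood at 59.5 and 60.8 CPM in ZIP, 213.5 and 216 CPM in SCR, and 29.03 CPM in the untransduced library. FOSL2 fell by 1.84 ± 0.03 on the log2 scale in ZIP against SCR (edgeR, adjusted p = 1.1e-20). It rose by 2.89 ± 0.05 in SCR (edgeR, adjusted p = 3e-23) and by 1.05 ± 0.05 in ZIP (edgeR, adjusted p = 5.9e-14), each against untransduced cells.

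The members outside the JUN and FOS families did not move together. BATF3 (ENSG00000123685, chromosome 1, 212686418 to 212699985), known for its need in cross-presenting dendritic cells, had 10 and 9 counts in ZIP, 90 and 93 in SCR, and 7 in the untransduced library. These are 0.327 and 0.372 CPM in ZIP, 3.55 and 3.62 CPM in SCR, and 0.292 CPM in the untransduced library. BATF3 fell by 3.35 ± 0.26 on the log2 scale in ZIP against SCR, the largest fall among the members (edgeR, adjusted p = 4.1e-10), and rose by 3.59 ± 0.36 in SCR against untransduced cells (edgeR, adjusted p = 8.3e-09). In ZIP against untransduced cells its log2 fold change was 0.24 ± 0.58 (edgeR, adjusted p = 0.756), a difference not detectable at these counts.

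ATF3 (ENSG00000162772, chromosome 1, 212565334 to 212620777), the stress-induced member, stood at 10.9 and 10.5 CPM in ZIP, 18.7 and 19.6 CPM in SCR, and 2.17 CPM in the untransduced library. ZIP again lay between the other groups. ATF3 fell by 0.84 ± 0.08 on the log2 scale in ZIP against SCR (edgeR, adjusted p = 6.6e-09), and rose by 3.14 ± 0.15 in SCR (edgeR, adjusted p = 1.2e-14) and by 2.30 ± 0.16 in ZIP (edgeR, adjusted p = 4.2e-11), each against untransduced cells.

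BATF (ENSG00000156127, chromosome 14, 75522425 to 75547015), which acts with IRF proteins in lymphocytes, varied least. It stood at 9.501 and 8.225 CPM in ZIP, 7.45 and 6.61 CPM in SCR, and 8.72 CPM in the untransduced library, which lay between the ZIP libraries. BATF rose by 0.35 ± 0.11 on the log2 scale in ZIP against SCR (edgeR, adjusted p = 0.0103), but the call was lost without ZIP 1 (log2 0.23, edgeR, adjusted p = 0.165), without SCR 2 (log2 0.26, edgeR, adjusted p = 0.0834) and by DESeq2 (log2 0.34, adjusted p = 0.0972). Its log2 fold change was -0.31 ± 0.14 in SCR (edgeR, adjusted p = 0.0505) and 0.03 ± 0.13 in ZIP (edgeR, adjusted p = 0.843), each against untransduced cells. The SCR value passed without SCR 1 (log2 -0.40, edgeR, adjusted p = 0.0263) and without ZIP 2 (log2 -0.31, edgeR, adjusted p = 0.0314).

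**Figure D2:**
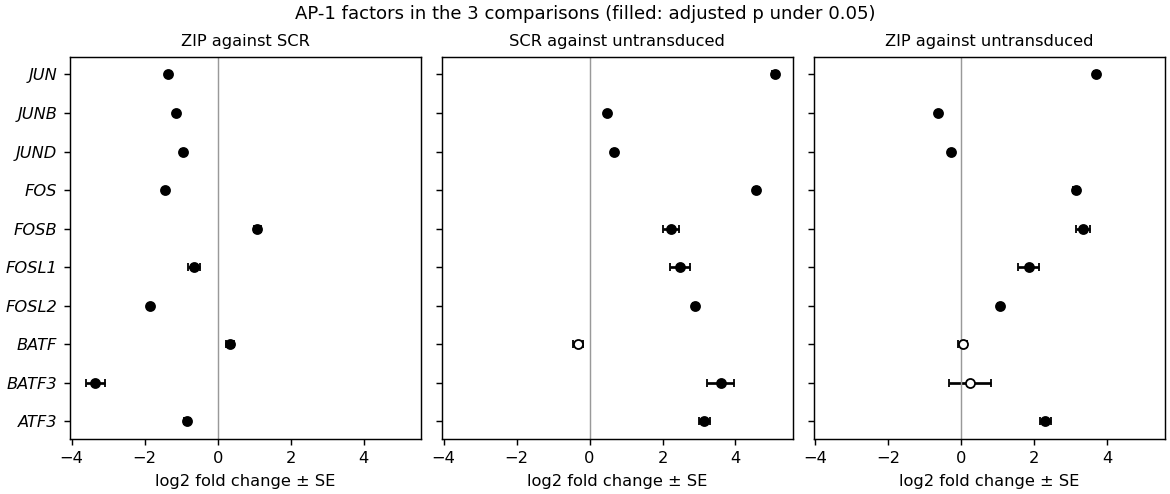
Log2 fold change of each AP-1 factor with its SE in the 3 comparisons, filled where the adjusted p was under 0.05. FOSB and BATF stand right of 0 in ZIP against SCR and the other 8 stand left of it, whereas JUN and FOS stand far right of 0 in both comparisons with untransduced cells.

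To set levels of different genes beside one another, CPM was divided by the length of the merged exons in kilobases. On this per-kilobase scale JUND was the highest member in every library, at 68.2 and 65.9 in ZIP, 131 and 129 in SCR, and 82.4 in the untransduced library, and JUNB was next. In both ZIP libraries JUN and FOS followed. BATF and FOSL2 then changed places between the ZIP libraries, at 9.69 and 8.39 against 8.31 and 8.49 CPM per kilobase, as did FOSL1 and FOSB, so neither pair is ordered there. ATF3 lay between these pairs and BATF3 was last. In both SCR libraries the order was JUND, JUNB, JUN, FOS, FOSL2, BATF, ATF3, FOSL1, BATF3 and FOSB. In the untransduced library BATF and FOSL2 came after JUND and JUNB, at 8.90 and 4.06 CPM per kilobase. They were ahead of JUN at 2.11 and FOS at 1.73, and ATF3 and FOSL1 lay within counting error of each other at 0.537 and 0.531. These orders hold for merged exon length only. The longest transcript of FOS has 2158 bases against 3238 of merged exon, and that of ATF3 2103 against 4040, while JUN has 3540 by either. Close ranks, such as JUN over FOS in the untransduced library, therefore depend on the length used.

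The summed per-kilobase level of the JUN family was 133 and 131 in ZIP, 285 and 281 in SCR, and 143 in the untransduced library. The sum in ZIP was thus near that in untransduced cells although its make-up was not. JUN made up 21.0% and 20.5% of the sum in ZIP, 24.8% and 25.2% in SCR, and 1.48% in the untransduced library. The 95% interval of the untransduced share ran from 1.27% to 1.71%. It is the exact binomial (Clopper-Pearson) interval of the gene's part of the family counts, converted to the per-kilobase scale. The mix of the other family genes was held fixed, so the interval covers only part of the counting error. Intervals of the other shares were made in the same way. JUNB made up 27.9% and 29.2% in ZIP, 29.2% and 28.8% in SCR, and 40.9% (39.7% to 42.1%) in the untransduced library.

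The FOS family sum was 27.6 and 27.4 CPM per kilobase in ZIP, 75.1 and 75.1 in SCR, and 6.52 in the untransduced library. FOS made up 55.3% and 55.1% of it in ZIP, 55.6% and 54.0% in SCR, and 26.5% (22.9% to 30.2%) in the untransduced library, where FOSL2 held 62.3% (58.3% to 66.1%). FOSB made up 7.23% and 7.55% in ZIP, 1.31% and 1.23% in SCR, and 3.11% (2.06% to 4.50%) in the untransduced library. These shares are descriptions without a test.

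**Figure D3:**
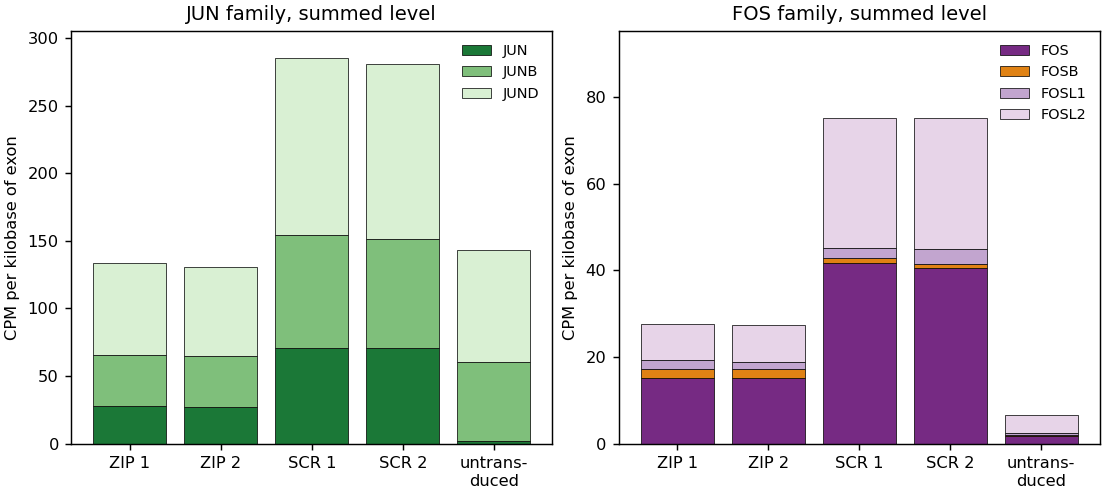
Stacked bars of CPM per kilobase of merged exon for the JUN family (left) and the FOS family (right) in the 2 ZIP, 2 SCR and 1 untransduced libraries. The JUN family sum is similar in ZIP and untransduced cells, but JUN itself is a thin slice (1.48%) in the untransduced library, while the FOS family sum is lowest there.

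Members were also compared by the shape of their profile, log2(CPM + 0.5) centred on its mean over the 5 libraries, as a root mean square distance in log2 units. The libraries come from 3 groups, so such a distance reflects few independent differences. JUNB and JUND were the closest pair (0.128), followed by JUN and FOS (0.225), FOSL1 and ATF3 (0.338) and FOSL2 and BATF3 (0.348). With a pseudocount of 0.1 the first 3 pairs were again the closest, and FOSL2 and BATF3 stood 0.548 apart. FOSB was 0.774 from its nearest member, FOSL1. Among 11012 other protein-coding genes with a mean of at least 1 CPM, the closest to JUN were TNS3 (0.110), DUSP1 (0.126) and TNS1 (0.168). TNS3 and TNS1 encode tensins, which tie integrins to actin, and DUSP1 a phosphatase of MAP kinases. The order rests on the pseudocount, since these genes were near the floor in the untransduced library. With 0.1 in place of 0.5, TNS3, DUSP1 and TNS1 ranked 26, 72 and 74 from JUN. DUSP1 stood at 6.86 and 7.15 CPM in ZIP, 15.9 and 15.9 CPM in SCR, and 0.125 CPM in the untransduced library, there on 3 counts. Its log2 fold change in SCR against untransduced cells was 6.93 ± 0.28, beside 5.07 ± 0.06 for JUN. The closest to FOS were the adhesion receptor gene ADGRA2 (0.0890), WWC3 (0.137) and the zinc finger gene HIVEP3 (0.181), which ranked 37, 8 and 4 with the smaller pseudocount.

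The rest of the AP-1 network was read from lists of textbook members. These were chosen with earlier results of these data known, so their counts and medians are descriptions and no independent support. Beside them, 32.2% of all genes rose and 33.2% fell in ZIP against SCR. In SCR against untransduced cells 32.7% rose and 32.2% fell, and in ZIP against untransduced cells 28.5% rose and 29.7% fell. Of 21 other immediate early genes 20 were tested. In ZIP against SCR 18 of them fell and 2 rose, with a median log2 fold change of -1.34. All 20 rose in SCR against untransduced cells (median 2.42), and in ZIP against untransduced cells 13 rose and 2 fell (median 1.23). The endothelial and leukocyte factor KLF2 fell by 5.51 ± 0.11 on the log2 scale in ZIP against SCR, to 1.18 and 0.744 CPM in ZIP, against 45.1 and 44.9 CPM in SCR, with 0.459 CPM in the untransduced library (edgeR, adjusted p = 2.3e-19). ZFP36, which speeds decay of cytokine mRNAs, fell by 1.90 ± 0.04, the kinase gene SGK1 fell by 2.63 ± 0.09 and the antiproliferative gene BTG2 fell by 1.90 ± 0.07 (edgeR, adjusted p = 2.2e-18, 9.1e-16 and 2e-15). The 2 that rose, named after their values were seen, were the nuclear receptor gene NR4A2 (1.10 ± 0.08) and the matrix protein gene CCN1 (1.67 ± 0.15). Like FOSB, both were also above SCR and the untransduced library: NR4A2 stood at 19.2 and 18.9 CPM in ZIP, 8.87 and 8.86 CPM in SCR, and 3.00 CPM in the untransduced library.

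Of 24 reported AP-1 target genes 20 were tested. In ZIP against SCR 19 fell and 0 rose (median -1.53), and CCND1 did not pass (-0.11 ± 0.05, edgeR, adjusted p = 0.0737). In SCR against untransduced cells 19 rose and CCND1 fell (median 2.24, or 2.14 with values against a group at 0 set to their bound from a floor of 3 counts). In ZIP against untransduced cells 9 rose and 3 fell, with a median of 0.16 (0.14 without values where both groups were at or under the floor). SPP1, which encodes osteopontin, fell by 6.17 ± 0.09 on the log2 scale in ZIP against SCR, to 0.914 and 1.116 CPM in ZIP, against 74.2 and 71.3 CPM in SCR, with 1.21 CPM in the untransduced library (edgeR, adjusted p = 2.7e-21). The nuclear lamin gene LMNA fell by 1.36 ± 0.03, to 132 and 131 CPM in ZIP, against 337 and 337 CPM in SCR, with 41.3 CPM in the untransduced library (edgeR, adjusted p = 3.6e-19). The chemokine genes CXCL8 and CCL2 had log2 fold changes of -1.94 ± 0.03 and -4.55 ± 0.08 (edgeR, adjusted p = 9.3e-22 and 1.3e-20). In ZIP against untransduced cells they parted. CXCL8 rose, at 151.6 and 152 CPM in ZIP and 43.6 CPM in the untransduced library (edgeR, adjusted p = 1.4e-19), whereas CCL2 fell by 1.86 ± 0.14 on the log2 scale (edgeR, adjusted p = 8.4e-11).

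Other basic leucine zipper factors that share partners or sites with AP-1 were mixed. Of 12 tested, 10 fell and 2 rose in ZIP against SCR (median -0.30), 6 rose and 3 fell in SCR against untransduced cells (median 0.23), and 4 rose and 4 fell in ZIP against untransduced cells. That last median was 0.01, or -0.05 with MAF, at 0 in the untransduced library and under the floor in ZIP, left out. CREB5 was at 22.8 and 24.0 CPM in ZIP, 4.85 and 5.09 CPM in SCR, and 19.98 CPM in the untransduced library, a log2 fold change of 2.23 ± 0.09 in ZIP against SCR (edgeR, adjusted p = 1.1e-14). MAFK, a small MAF protein without an activation domain, rose by 0.76 ± 0.05 on the log2 scale in the same comparison, and MAFF, of the same kind, fell by 2.23 ± 0.13 (edgeR, adjusted p = 3.2e-11 and 5.5e-12).

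Of 18 kinases and serum response factors that act on JUN and FOS 17 were tested, with smaller median changes than the AP-1 factors. Single genes moved more. Their log2 fold changes ran from -2.88 to 0.20 in ZIP against SCR, and from -0.22 to 5.12 in SCR against untransduced cells. In ZIP against SCR 7 fell and 2 rose (median -0.07). In SCR against untransduced cells 11 rose and 0 fell (median 0.37), and in ZIP against untransduced cells 11 rose and 1 fell (median 0.21). Of all genes, 65.4%, 64.9% and 58.2% were called in either direction in these comparisons in turn, so being called was common. MEF2D, a factor of the JUN promoter, fell by 0.97 ± 0.03 on the log2 scale in ZIP against SCR, to 209.5 and 207.5 CPM in ZIP, against 403.5 and 415 CPM in SCR, with 70.8 CPM in the untransduced library (edgeR, adjusted p = 4e-17). MEF2C fell by 2.88 ± 0.15, the ERK1 gene MAPK3 by 1.11 ± 0.06 and the ETS factor gene ELK3 by 0.91 ± 0.07 (edgeR, adjusted p = 8e-13, 4e-12 and 5e-10). The JNK1 gene MAPK8, picked for its role as a kinase of JUN, was at 47.7 and 47.5 CPM in ZIP, 48.2 and 46.96 CPM in SCR, and 46.7 CPM in the untransduced library. Among 4 ubiquitin ligase genes for JUN, COP1 fell by 0.14 ± 0.03 in ZIP against SCR while DET1 rose by 0.34 ± 0.11 and FBXW7 by 0.14 ± 0.06 (edgeR, adjusted p = 0.0014, 0.0102 and 0.0306). Of these rises 0 were called by DESeq2, and 1 with library totals or when any 1 replicate was left out. ITCH did not pass in that comparison (-0.05 ± 0.04, edgeR, adjusted p = 0.292).

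**Figure D4:**
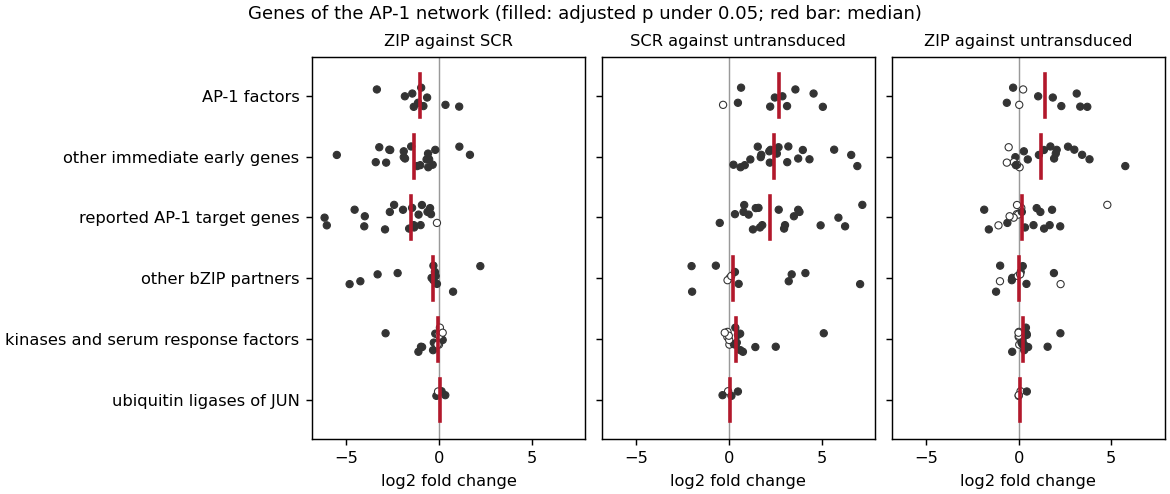
Log2 fold changes of the AP-1 factors and of 5 lists of related genes in the 3 comparisons, a point per tested gene, filled where the adjusted p was under 0.05, with a red bar at the list's median. The immediate early and target lists, chosen with earlier results of these data known, have medians of -1.34 and -1.53 in ZIP against SCR. The AP-1 factors have a median of -1.04 there, and kinases and ubiquitin ligases have medians of -0.07 and 0.05.

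Lineage markers also differed between the groups. Being called was common, since 65.4% of all genes were called in either direction in ZIP against SCR. The shares were 64.9% in SCR and 58.2% in ZIP, each against untransduced cells. The 7 promyelocyte markers summed to 23060 and 22410 CPM in ZIP, 12110 and 12110 CPM in SCR, and 24810 CPM in the untransduced library. Most of this was MPO, at 17050 and 16580 CPM in ZIP, 9966 and 9991 CPM in SCR, and 19020 CPM untransduced. In ZIP against SCR 5 of the 7 rose, MYB fell (log2 -0.14 ± 0.02) and CD33 did not pass. In SCR against untransduced cells 6 fell and MYB rose, and in ZIP against untransduced cells 2 rose and 3 fell. Of 9 monocyte markers 8 were in the table, summing to 154 and 149 CPM in ZIP, 313.5 and 312.5 CPM in SCR, and 247 CPM in the untransduced library, with 0 of 8 at 0 in any library. The greater part of these sums was S100A8 and S100A9. S100A8 was at 43.95 and 39.4 CPM in ZIP, 41.6 and 43.2 CPM in SCR, and 88.7 CPM in the untransduced library, and S100A9 at 97.9 and 96.5 CPM in ZIP, 144 and 140.1 CPM in SCR, and 153 CPM in the untransduced library. CD14 and CSF1R, picked from the other markers, did not follow the sums and were lowest in the untransduced library. FCGR3A, under 1 CPM in every library, had the order of the sums. CD14 was at 3.49 and 4.17 CPM in ZIP, 54.6 and 53.5 CPM in SCR, and 2.09 CPM in the untransduced library, and CSF1R at 7.18 and 6.90 CPM in ZIP, 41.0 and 43.9 CPM in SCR, and 1.29 CPM in the untransduced library. In ZIP against SCR 6 of the 8 fell and 0 rose, in SCR against untransduced cells 5 rose and 2 fell, and in ZIP against untransduced cells 3 rose and 2 fell. The markers that fell in both comparisons with untransduced cells were S100A8 and S100A9. The lymphocyte markers summed to 14.0 and 14.6 CPM in ZIP, 24.9 and 22.7 CPM in SCR, and 16.5 CPM in the untransduced library, most of it NKG7, and MS4A1 was at 0 in every library. The erythroid and megakaryocyte markers summed to 5.42 and 5.37 CPM in ZIP, 3.19 and 2.88 CPM in SCR, and 4.46 CPM in the untransduced library, with HBB and HBA1 at 0 in every library. The part of these markers in the AP-1 values was not tested.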

How the data were processed

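RNA from 5 HL60 libraries was measured by sequencing. The deposited table holds raw counts per Ensembl gene ID, not normalized by the authors; this was read from the values, which are whole numbers with a different total in each library. Bowtie2 and featureCounts stand in the submitters' processing notes, whereas the series' design text names TopHat 2 and HTSeq. The sources used here do not say which of them made the counts, nor the genome build, the annotation or the strand setting. Of 51055 gene IDs 44305 had a symbol, and 0 columns belonged to other samples. Coordinates and exon lengths are from GENCODE release 29 (GRCh38), and sequences from RefSeq (GRCh38.p14).

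Testing was done with edgeR 4.0.16 in R 4.3.3: filterByExpr (minimum count 10, minimum total 15), TMM scaling (factors 0.990 and 0.991 in ZIP, 1.03 and 1.03 in SCR, 0.956 in the untransduced library) and the quasi-likelihood test with Benjamini-Hochberg adjustment over all genes tested, at 0.05. ZIP against SCR used 4 libraries and the comparisons with untransduced cells used 5, each with 2 residual degrees of freedom. The SE is the log2 fold change divided by the square root of its F statistic. DESeq2 1.42.0, other scalings, no filter, a replicate block and leaving out each replicate were the alternatives. The fitting code was tested on simulated data. Replicates differed by more than counting noise, with a mean chi-square per gene of 1.79 between the ZIP libraries and 2.47 between the SCR libraries, and were kept separate. Counting error alone enters the intervals and floors.

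The members and gene lists were chosen with earlier results of these data known. Named genes are all 10 members, of each list up to 4 called genes of smallest p in ZIP against SCR, and the 3 genes closest in profile to JUN and to FOS. The motif TGACGT was added after the promoter sequences were seen. Genes named outside this rule are said to be so, or stand for the gene they overlap or for the list genes that did not pass. The microRNA locus itself was not tested, and some genes that the rule names are not reported here.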

Additional observations from a re-analysis of the deposited data

How the results depend on the processing

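Of 279 results of single members under another setting, 272 kept their direction and their side of the threshold, and the 7 others all concerned BATF. In ZIP against SCR, 8 members fell under every alternative. The count that rose was 1 instead of 2 with DESeq2, and 1 to 2 when a replicate was left out. In SCR against untransduced cells 9 rose under every alternative, and the count that fell was 1 (BATF) instead of 0 in a fit of these groups alone (log2 -0.32, edgeR, adjusted p = 0.0377), and 0 to 1 when a replicate was left out. In ZIP against untransduced cells 6 rose and 2 fell throughout, and the log2 fold change of BATF turned to -0.08 without ZIP 1 (edgeR, adjusted p = 0.661). With the longest transcript as length, FOS made up 61.8% of its family in ZIP, 62.6% in SCR and 33.1% in the untransduced library, and the JUN share did not move.

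With library totals the median of all genes in SCR against untransduced cells was 0.13 instead of 0.02, and each called member moved by more than that shift there. DESeq2 called 3023 genes lower in ZIP against untransduced cells, edgeR 4705. Several list counts moved by over 1.5 times. Immediate early genes that fell in ZIP against untransduced cells were 0 with library totals or DESeq2, and 1 with no filter, in the fit of these groups alone or with any single replicate left out, instead of 2. Other leucine zipper genes that rose there were 2 with DESeq2 or without ZIP 2, instead of 4. Kinases that rose in ZIP against SCR were 1 with library totals or without SCR 1, instead of 2, and those that fell in SCR against untransduced cells 1 instead of 0 in the fit of these groups alone. Ubiquitin ligases were 0 to 2 in either direction. Smaller moves included leucine zipper genes lower in ZIP against SCR (7 without SCR 1 instead of 10) and kinases lower there (10 with library totals instead of 7). The pseudocount of 0.1 for profile distances was chosen after seeing the data.

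The labels give ZIP and SCR the same replicate numbers but do not say that these pair the libraries. Deviations of same-numbered libraries from their group means correlated at 0.0319 over genes. With the replicate number as a block, 2 members rose and 8 fell, and 4790 and 4919 of all genes. BATF3, FOSL1 and FOSB rest on few counts in the untransduced library (7, 24 and 27). That group has 1 library, which limits every comparison with it.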
